A study of Mus musculus with 2 samples.

Results

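Oxidative phosphorylation is run by genes of 2 genomes, and these were read apart in single cells from 2 mouse mammary tumors, 1 labelled Dll1+ and 1 labelled Dll1-. Members were the genes whose symbols start with Nduf (mostly complex I), Uqcr (complex III), Atp5 (ATP synthase) or mt- (the mitochondrial genome), or with Cox4 to Cox8 and a letter (complex IV). They also needed at least 30 unique molecular identifiers (UMIs, each a counted RNA molecule) over both libraries. Of 32285 genes in the files 103 matched and 100 passed the minimum, 87 of them nuclear and 13 mitochondrial. The nuclear members were 37 complex I subunits, 8 complex I assembly factors, 8 genes of complex III, 17 of complex IV and 17 of ATP synthase, with Ndufa4 and Ndufa4l2 counted to complex IV, where the Ndufa4 protein belongs, despite their symbols. The symbols under the minimum were Cox7b2 with 0 UMIs and Cox6a2 and Cox8c with 5 each, and the member with the fewest was Cox8b with 674. The labels state neither what made a tumor Dll1+ or Dll1- nor the strain, age, genotype and driver of the tumors.

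Both tumors were untreated controls, each was digested to single cells, and live cells negative for CD45, a leukocyte surface protein, were sorted. The stain also held antibodies to CD31 and Ter119, markers of endothelium and erythroid cells. Each group was 1 tumor and 1 library, so no difference was tested, and the 95% intervals given reflect counting error alone. Cells of a library are not replicates, and a difference between the libraries cannot be told apart from a difference between any 2 tumors or 2 preparations.

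Oxidative phosphorylation takes place in the inner mitochondrial membrane. Complexes I, III and IV pass electrons from NADH to oxygen and pump protons, and ATP synthase uses the proton gradient to make ATP. Most subunits are encoded in the nucleus and imported. A few core subunits of complexes I, III, IV and of ATP synthase are encoded in mitochondrial DNA, which is transcribed as long transcripts that are cut into single RNAs. Complex II has no mitochondrially encoded subunit.

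The Dll1+ library held 117230907 UMIs in 13819 barcodes and the Dll1- library 135960457 in 13097. After filters and removal of likely doublets 9685 Dll1+ and 10132 Dll1- cells were kept, at median depths of 7882 and 9904 UMIs. The libraries shared 109 barcodes, carried by 57 Dll1+ and 61 Dll1- cells. Epithelial-like cells numbered 8054 in the Dll1+ and 8644 in the Dll1- library, fibroblast-like cells 332 and 572, pericyte-like cells 376 and 175, and endothelial-like cells 292 and 280. Krt5-led cells numbered 342 and 392. This class pools a cluster led by Krt5 and named by basal markers with a cluster named by skin keratinocyte markers, and is given no cell type. The keratinocyte-led cluster gave 10 of its Dll1+ and 77 of its Dll1- cells. Dll1 itself was at 54.1 CPM (the UMIs of a gene scaled by all UMIs of the class) in Dll1+ and 3.97 CPM in Dll1- epithelial-like cells. Macrophage-like cells numbered 23 and 7 and cells left unnamed 266 and 62, and these are not described.

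The nuclear and the mitochondrial genes stood in different relation to the library. The 13 mt- genes together took up a larger share of UMIs in the Dll1+ tumor in all 5 classes, while the 87 nuclear genes together took up nearly the same share of the remaining UMIs. In epithelial-like cells, the mt- genes made up 5.66% (5.66 to 5.67) of all UMIs in the Dll1+ and 3.98% (3.98 to 3.99) in the Dll1- library, a ratio of 1.42. In fibroblast-like cells the shares were 3.07% and 1.80%, a ratio of 1.71 (1.69 to 1.73). One smaller cluster within this class, a sub-state led by Saa3 and Apoe, held 138 Dll1+ and 128 Dll1- cells. Its shares were 3.04% in Dll1+ and 2.37% in Dll1-, a ratio of 1.28. The part of sub-state make-up in the fibroblast ratio was not tested. In pericyte-like cells the mt- shares were 3.76% and 2.49%, a ratio of 1.51 (1.49 to 1.53). Among the 5 classes the ratios were lowest in endothelial-like cells, 4.62% against 3.47% (1.33), and in Krt5-led cells, 5.59% against 4.28% (1.31).

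The nuclear genes were given as a percent of UMIs other than mt- UMIs, so that mt- genes did not enter the denominator. They made up 2.60% in Dll1+ and 2.54% in Dll1- epithelial-like cells and 2.68% and 2.54% in Krt5-led cells. They made up 1.65% in Dll1+ and 1.61% in Dll1- fibroblast-like cells and 2.43% and 2.49% in pericyte-like cells. In endothelial-like cells they made up 1.97% in the Dll1+ and 2.11% in the Dll1- library. These ratios lay between 0.933 and 1.06, with 3 classes above 1 and 2 below it.

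**Figure D1:**
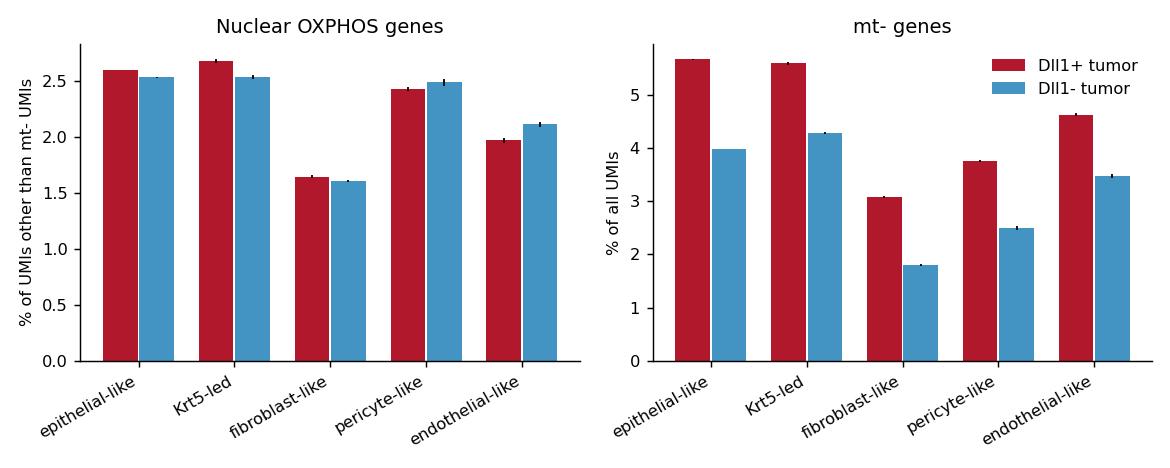
Summed OXPHOS genes by cell class. Left, nuclear genes as a percent of UMIs other than mt- UMIs; right, mt- genes as a percent of all UMIs, with red bars for the Dll1+ and blue bars for the Dll1- tumor and 95% counting intervals. The mt- bars are higher in Dll1+ in all 5 classes, by 1.31 to 1.71 times, and the nuclear bars differ by ratios of 0.933 to 1.06.

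The order of the classes was similar in both libraries for the nuclear genes. Fibroblast-like cells had the lowest nuclear level, 0.634 times that of epithelial-like cells in both the Dll1+ and the Dll1- library. Endothelial-like cells came next, at 0.759 times in Dll1+ and 0.834 times in Dll1-. Pericyte-like and Krt5-led cells were near the epithelial level, between 0.934 and 1.03 times. For mt- genes fibroblast-like cells were again lowest, at 0.543 times the epithelial level in Dll1+ and 0.452 times in Dll1-. These are levels within libraries and were not tested. Of 42 nuclear genes with the same highest class in both libraries, 17 were highest in epithelial-like, 13 in Krt5-led, 9 in pericyte-like, 2 in endothelial-like and 1 in fibroblast-like cells. The same count over all genes was not made. Some of these gaps were small: Ndufa3 in pericyte-like cells was at 1.11 times its lowest class in Dll1+ and 1.33 times in Dll1-.

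All 13 mitochondrially encoded members were measured in all 5 classes. They are mt-Nd1 to mt-Nd6 with mt-Nd4l (complex I), mt-Cytb (complex III), mt-Co1 to mt-Co3 (complex IV), and mt-Atp6 and mt-Atp8 (ATP synthase). Of these, 8 were at least 1.5-fold higher in Dll1+ epithelial-like cells and 0 at least 1.5-fold lower, where 20.9% of 15230 genes measured in these cells were higher and 5.76% lower. The median log2 ratio, Dll1+ over Dll1-, was 0.66, beside 0.21 over all genes measured. Ratios are log2 of CPM plus 1. In fibroblast-like cells 9 were higher and 1 lower, beside 8.6% and 5.27% of all genes, with a median of 0.81. In pericyte-like cells 8 were higher and 0 lower, beside 17.7% and 3.63%, with a median of 0.67. In endothelial-like cells 5 were higher and 0 lower, beside 11% and 4.08%, with a median of 0.44. With at most 10% mt- UMIs per barcode, 0 of the 13 were at least 1.5-fold higher in endothelial-like cells, with a median of 0.31. In Krt5-led cells 1 was higher and 0 lower, beside 16.6% and 10.2%, with a median of 0.47.

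The epithelial all-gene median depends on the scaling. With TMM factors, which scale on genes of middling change, epithelial log2 ratios moved by -0.26. The mt- median was then 0.39 and 1 of the 13, mt-Nd1, was still at least 1.5-fold higher. The mt- median stayed above 0 in each class under each of the alternatives run.

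mt-Nd1, a core subunit of complex I, was at 2543 CPM in Dll1+ and 1303 CPM in Dll1- epithelial-like cells, a log2 ratio of 0.96 (0.95 to 0.97). In fibroblast-like cells it was at 1533 CPM in Dll1+ and 848 CPM in Dll1-, and in pericyte-like cells at 1832 and 919 CPM. It was the one mt- gene at least 1.5-fold higher in all 5 classes, with log2 ratios from 0.67 to 0.99. In Krt5-led cells it was at 0.56 with TMM factors, and so below 1.5-fold. mt-Nd2, mt-Nd3, mt-Nd4 and mt-Nd5, also subunits of complex I, passed 1.5-fold in 4 of 5 classes each.

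mt-Co1, the catalytic subunit of complex IV and the mt- gene with the most UMIs in epithelial-like cells, differed least among the abundant ones. It was at 12930.3 CPM in Dll1+ and 11430.0 CPM in Dll1- epithelial-like cells, a log2 ratio of 0.18 (0.17 to 0.18). Its log2 ratio lay between 0.04 and 0.50 in the 5 classes and reached 1.5-fold in 0 of them. As a share of mt- UMIs it was lower in Dll1+ in all 5 classes: 22.8% against 28.7% in epithelial-like, 18.7% against 23.7% in Krt5-led, 19.9% against 24.0% in fibroblast-like, 17.5% against 19.3% in pericyte-like and 20.96% against 22.71% in endothelial-like cells. Such shares show unequal change among the mt- genes, not which of them changed.

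mt-Co3, another core subunit of complex IV, differed from mt-Co1 in this. It took 18.3% of mt- UMIs in Dll1+ and 16.5% in Dll1- epithelial-like cells, and its share was higher in Dll1+ in all 5 classes. mt-Nd4l, a small complex I subunit, was like mt-Co1 in having a lower share of mt- UMIs in Dll1+ in all 5 classes, 0.787% against 0.971% in epithelial-like cells. Its gene overlaps mt-Nd4 on the same strand, as mt-Atp8 does mt-Atp6, so the counts within these pairs are uncertain. Sequences of mitochondrial origin in nuclear chromosomes can also share reads with mt- genes, and the labels do not say how the submitters' counting treated them.

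mt-Nd6 is the single protein-coding member on the minus strand of the mitochondrial chromosome (M, 13552 to 14070, mm10) and overlaps the end of mt-Nd5. It had few UMIs outside epithelial-like cells. In fibroblast-like cells it had 10 UMIs in Dll1+ (3.23 CPM, 1.55 to 5.95) and 31 in Dll1- (7.72 CPM, 5.24 to 10.95), a log2 ratio of -1.04. In pericyte-like cells it had 26 UMIs in Dll1+ (10.6 CPM) and 5 in Dll1- (4.63 CPM), a log2 ratio of 1.05 whose interval of -0.20 to 2.94 held 0. With a pseudocount of 10 CPM both values lay within 1.5-fold, at -0.42 in fibroblast-like and 0.50 in pericyte-like cells. The fibroblast value was also within 1.5-fold with no limit on mt- UMIs (-0.56), with doublets left in (-0.57) and as a mean over cells (-0.47).

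**Figure D2:**
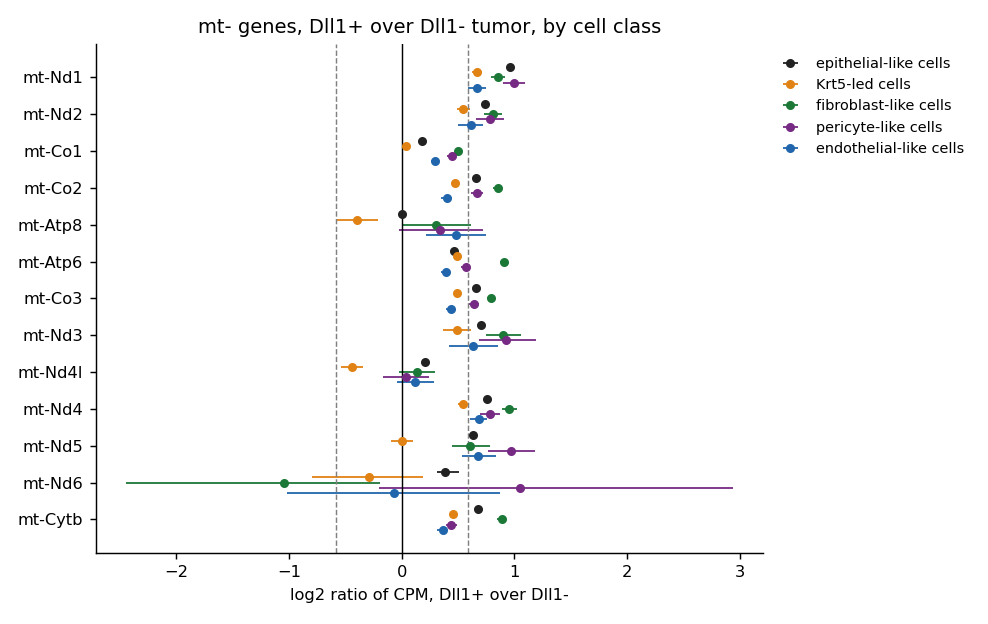
Log2 ratio of CPM, Dll1+ over Dll1-, of the 13 mt- genes in genome order from top to bottom, in 5 cell classes given by colour. Bars are 95% counting intervals and dashed lines mark 1.5-fold. mt-Nd1 lies right of the upper dashed line in all 5 classes, mt-Co1 in 0 of them, and mt-Nd6 has the widest intervals.

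Depth and the share of barcodes rich in mt- RNA differed between the libraries. Median depth was lower in Dll1+ epithelial-like cells, 8010 against 10687.5 UMIs, and higher in Dll1+ in the other classes. It was 9251 against 6630 UMIs in fibroblast-like and 11307 against 8404 in Krt5-led cells. Pericyte-like cells had 5837 against 5513 and endothelial-like cells 4161.5 against 3730. Before the limit of 20% mt- UMIs, 1277 of 11858 Dll1+ barcodes (10.8%) and 500 of 11621 Dll1- barcodes (4.30%) lay above it. With no limit, 13.1% of Dll1+ and 5.29% of Dll1- epithelial-like barcodes were above 20%, at median depths of 2180 and 2075 UMIs, and the mt- shares were 6.57% and 4.25%. With a limit of 10% the epithelial mt- median log2 ratio was 0.52 and 4 of the 13 genes were at least 1.5-fold higher. At matched depth the mt- share was higher in Dll1+ epithelial-like cells in all 5 bins, 10.8% against 9.42% at 1000 to 2000 UMIs, 6.60% against 4.95% at 5000 to 10000 and 4.21% against 3.23% at 20000 UMIs and more. The ratio was 1.15 in the shallowest bin and reached 1.45 at 10000 to 20000 UMIs. The part of cell damage, of the digestion and of depth in the mt- difference was not tested. A larger mt- share and less RNA from other genes cannot be told apart.

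Among epithelial-like cells the nuclear share was higher in deeper cells. In Dll1+ epithelial-like cells it was 1.41% at 1000 to 2000 UMIs and 3.02% at 20000 and more, and in Dll1- cells 1.56% and 2.78%. In the shallowest bin it was thus lower in Dll1+, and in the deepest it was higher. Fibroblast-like cells differed less with depth. Their nuclear share in Dll1+ was 1.66% at 2000 to 5000 UMIs and 1.64% at 10000 to 20000. In Dll1- it was 1.60% and 1.71% in these bins.

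Among the nuclear genes few differed by 1.5-fold. In epithelial-like cells 6 of 87 were at least 1.5-fold higher and 0 lower (20.9% and 5.76% of all genes measured), with a median log2 ratio of 0.10 (0.07 to 0.14). That median lies below the all-gene median of 0.21, and it turned to -0.16 with TMM factors and to -0.011 as a mean over cells of each cell's CPM. In fibroblast-like cells 2 of 84 were higher and 0 lower (8.6% and 5.27% of all genes), with a median of 0.06 that ranged from -0.02 to 0.08 over the alternatives. In Krt5-led cells 3 of 84 were higher and 0 lower (16.6% and 10.2% of all genes), with a median of 0.12. Pericyte-like cells had 2 of 86 higher and 1 lower (17.7% and 3.63% of all genes), with a median of -0.03. Endothelial-like cells had 1 of 82 higher and 1 lower (11% and 4.08% of all genes), with a median of -0.09 that ranged from -0.17 to 0.06 over the alternatives. Over the 5 classes, low counts included, 76 of the 87 lay within 1.5-fold in each class. The share of all genes that did so was not counted.

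**Figure D3:**
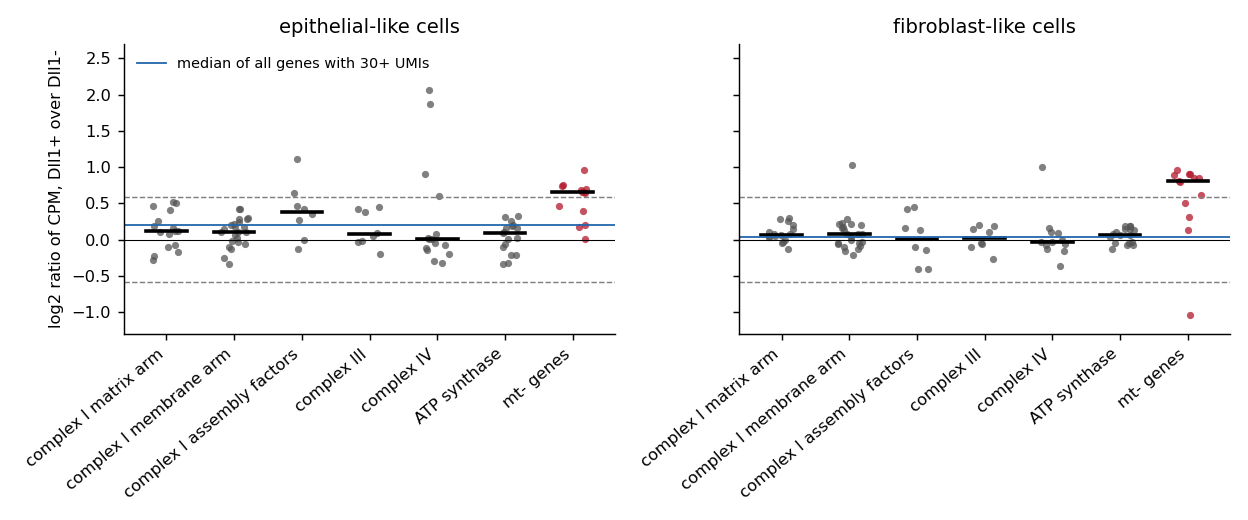
Log2 ratio of CPM, Dll1+ over Dll1-, of members with at least 30 UMIs in epithelial-like (left) and fibroblast-like (right) cells, grouped by symbol, so that Ndufa4 and Ndufa4l2 stand with the complex I membrane arm. Each point is a gene, black bars are group medians, dashed lines mark 1.5-fold and the blue line is the median of all genes measured. The nuclear groups lie around the blue line or below it in epithelial-like cells, apart from the assembly factors, while the mt- genes lie above it at a median of 0.66 on the left and 0.81 on the right.

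By complex, the epithelial medians lay close together. Complex I subunits of the matrix arm, which takes electrons from NADH, had a median log2 ratio of 0.12 (16 genes) and those of the membrane arm, which pumps protons, 0.11 (21 genes). Complex III had 0.07 (8 genes), ATP synthase 0.09 (17 genes) and complex IV 0.00 (17 genes, Ndufa4 and Ndufa4l2 included). The 8 complex I assembly factors, which help to build the complex and are not part of it, had the highest median, 0.39, at low levels that summed to 246 CPM in Dll1+ and 188 CPM in Dll1-.

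Ndufaf6, an assembly factor of complex I, was at 21.5 CPM in Dll1+ and 9.42 CPM in Dll1- epithelial-like cells, a log2 ratio of 1.11. It was the highest ratio among nuclear members with at least 20 CPM in a library. In the other 4 classes its levels were 7.44 to 17.2 CPM in Dll1+ and 6.72 to 13.9 CPM in Dll1-, and each interval of the ratio held 0. With epithelial sub-states present in both tumors weighted alike its log2 ratio was 0.12. Ndufaf7, which methylates a core subunit of complex I, was at 19.6 CPM in Dll1+ and 12.1 CPM in Dll1-, a log2 ratio of 0.65 that was 0.40 with TMM factors.

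Cox5a, a nuclear subunit of complex IV, was at 363 CPM (358 to 367) in Dll1+ and 239 CPM (236 to 242) in Dll1- epithelial-like cells. Its log2 ratio of 0.60 was just past 1.5-fold, and it was 0.34 with TMM factors and 0.31 with each cell thinned to 2000 UMIs. It was the one nuclear member above 20 CPM in both libraries that reached 1.5-fold in these cells. The next were Ndufs8 (150 against 105 CPM, 0.52) and Ndufv2 (166 against 116 CPM, 0.51), which carry iron-sulfur clusters of complex I. Below 1.5-fold but among the 10 highest were also Ndufa5 and Ndufb4 of complex I, the complex III core proteins Uqcrc1 and Uqcrc2, and the assembly factors Ndufaf3 and Ndufaf4, with log2 ratios of 0.42 to 0.46.

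The lowest ratios in epithelial-like cells belonged to subunits of complexes I and IV and of ATP synthase. Ndufa8 of complex I was at 175 CPM in Dll1+ and 222 CPM in Dll1-, a log2 ratio of -0.34. Atp5e and Atp5c1, subunits of the central stalk of ATP synthase, had log2 ratios of -0.34 and -0.33. Cox7c and Cox8a, small subunits of complex IV, had log2 ratios of -0.33 and -0.30, at 747 and 886 CPM in Dll1+ and 938 and 1090.1 CPM in Dll1-. The remaining 5 of the 10 lowest were Ndufa7, Ndufb9, Ndufs3, Atp5g3 and Atp5md, at -0.28 to -0.21. None of these 10 reached 1.5-fold in the reported scaling. With TMM factors 4 did, namely Ndufa8, Atp5e, Cox7c and Atp5c1, at -0.60 to -0.59.

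Of the 87 nuclear members, low-count genes included, 9 had log2 ratios above 0 and 5 below 0 in all 5 classes. The same count over all genes was not made. Cox6b1, Cox7c, Cox8a, Ndufb9 and Atp5j2 were lower in Dll1+ in each class. Ndufa5, Ndufa9, Ndufb4, Uqcrc1, Atp5f1 and Atp5o were higher in each. So were Ndufaf7 and, with few UMIs in some classes, Ndufa4l2 and Cox4i2. Classes with few UMIs included, Ndufa4l2 and Cox4i2 were at least 1.5-fold higher in 3 classes each and Ndufaf7 in 1. The log2 ratios of the other genes named here lay within 1.5-fold, and they are small against the scaling. The lowest for Ndufa9 was 0.01, in endothelial-like cells, where TMM factors moved ratios by -0.07 and so turned it.

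Subunits with a tissue-restricted copy showed larger contrasts between classes than between libraries. Ndufa4l2 is a paralog of Ndufa4, a subunit of complex IV, and is known as a target of hypoxia-inducible factor. It reached 1069.6 CPM in Dll1+ and 886 CPM in Dll1- pericyte-like cells, and had 0.685 and 0.257 CPM in epithelial-like cells. Ndufa4 ran the other way in pericyte-like cells, at 89.6 CPM in Dll1+ and 137 CPM in Dll1-, a log2 ratio of -0.61 that lay between -0.58 and -0.38 under 4 alternatives, within 1.5-fold, beside 466 and 476 CPM in epithelial-like cells. Of the UMIs of this pair, Ndufa4l2 held 92.3% in Dll1+ and 86.6% in Dll1- pericyte-like cells. After thinning to 2000 UMIs, 76.7% of Dll1+ and 76.6% of Dll1- pericyte-like cells had a Ndufa4l2 UMI, against 0.121% and 0.0711% of epithelial-like cells, at median depths before thinning of 5837 and 5513 UMIs for pericyte-like and 8010 and 10687.5 UMIs for epithelial-like cells. The unthinned shares were 82.7% and 88.0% of pericyte-like and 0.633% and 0.301% of epithelial-like cells.

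Cox4i2, the paralog of Cox4i1 known from lung and from cells that sense oxygen, was also highest in pericyte-like cells. It was at 329 CPM (307 to 353) in Dll1+ and 199 CPM (173 to 227) in Dll1- pericyte-like cells, a log2 ratio of 0.72. Cox4i1 was at 1072 and 1129 CPM there, so that Cox4i2 held 23.5% of the pair in Dll1+ and 14.98% in Dll1-. In epithelial-like cells Cox4i2 had 34 UMIs in Dll1+ and 36 in Dll1-, which was 0.0338% and 0.0256% of the pair. Both Cox4i2 and Ndufa4l2 were among the 10 leading genes of the pericyte-like cluster, so their place there is a description. With all members left out of clustering, the main pericyte-like cluster held 315 Dll1+ and 174 Dll1- cells, beside 315 and 175 with them in. The class also held a sub-cluster of 61 Dll1+ and 0 Dll1- cells, with Ndufa4l2 among its leading genes. With members left out, a sub-cluster of 60 Dll1+ cells and 1 Dll1- cell led by the same Eln, Actg2 and Des was not named, and another of 22 Dll1+ and 8 Dll1- cells was named pericyte-like. The log2 ratio was then 0.92 for Cox4i2 and 0.46 for Ndufa4l2, beside 0.72 and 0.27 as reported. Pericyte markers summed to 8949 CPM in Dll1+ and 6892 CPM in Dll1- pericyte-like cells. Smooth muscle markers summed to 6314 and 9320 CPM there, and fibroblast markers to 10992.2 and 15049.6 CPM, lower in Dll1+. The part of this make-up in the Cox4i2 difference was not tested. Ndufa4l2 shares exonic bases with Shmt2 on the other strand, and the labels do not say whether strand was used in counting.

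**Figure D4:**
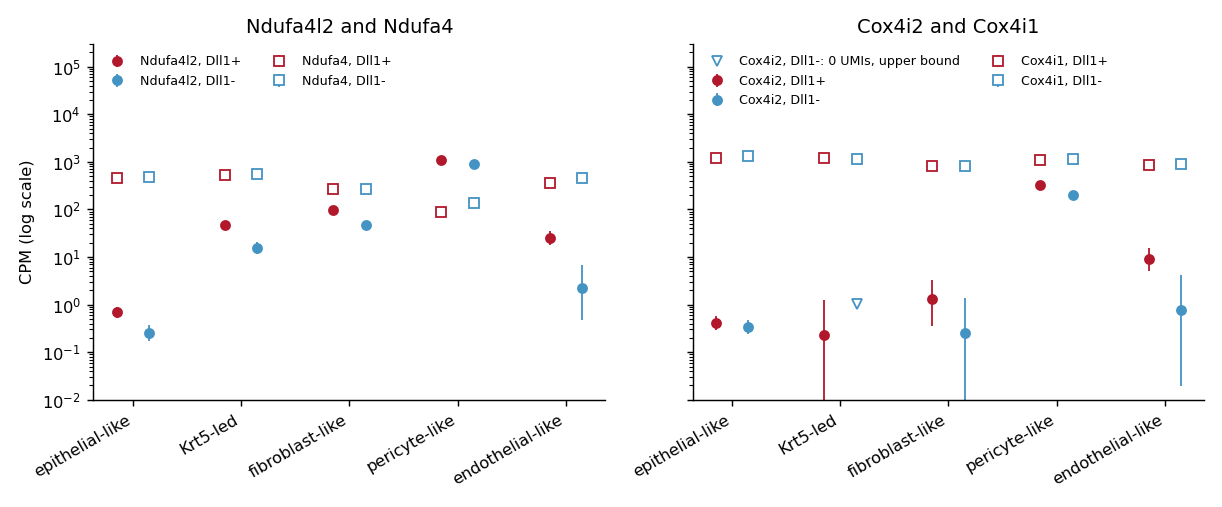
CPM on a log axis of Ndufa4l2 and Ndufa4 (left) and of Cox4i2 and Cox4i1 (right) by cell class, with 95% counting intervals; filled symbols are the restricted copies and red marks the Dll1+ tumor. The restricted copies peak in pericyte-like cells of both tumors, at 1069.6 and 886 CPM for Ndufa4l2, where Ndufa4 is at its lowest. The open triangle is the upper bound for Cox4i2 in Dll1- Krt5-led cells, with 0 UMIs.

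Ndufa4l2 was also higher in Dll1+ fibroblast-like cells, 95.7 CPM (85.1 to 107) against 46.3 CPM (39.9 to 53.5), a log2 ratio of 1.03. It was found in 86 of 332 Dll1+ and 95 of 572 Dll1- fibroblast-like cells. Pericyte markers summed to 148 CPM in Dll1+ and 97.1 CPM in Dll1- fibroblast-like cells, with Des at 0 in Dll1+ and Higd1b at 0 in Dll1-. By sub-state, Ndufa4l2 was at 102 CPM in Dll1+ and 32.8 CPM in Dll1- cells of the one fibroblast sub-state with at least 50 cells of each tumor, led by Saa3 and Apoe. In Krt5-led cells it was at 46.4 CPM in Dll1+ and 15.6 CPM in Dll1-, with 206 and 56 UMIs, which came from 30 and 18 cells. Its log2 ratio of 1.52 there was 0.55 with each cell thinned to 2000 UMIs, and so below 1.5-fold. The 30 Dll1+ cells had pericyte markers at 254 CPM and Rgs5 at 147 CPM, against 33.8 and 0.995 CPM in Dll1+ Krt5-led cells without a Ndufa4l2 UMI. The 18 Dll1- cells had pericyte markers at 20.8 CPM. The part of pericyte RNA in these differences was not tested.

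In endothelial-like cells Ndufa4l2 had 39 UMIs in Dll1+ (25.6 CPM) and 3 in Dll1- (2.28 CPM, 0.471 to 6.67). Of the 39, 37 lay in a sub-cluster of 37 Dll1+ cells led by endothelial and pericyte genes together. Without it Ndufa4l2 was at 1.42 CPM in Dll1+ and 2.28 CPM in Dll1-, and the log2 ratio of 3.02 turned to -0.44. Cox4i2 likewise went to 1.42 CPM in Dll1+ without these cells, against 0.761 CPM in Dll1-. Ndufa8 was the lowest nuclear member of endothelial-like cells, at 311 CPM (284 to 340) in Dll1+ and 506 CPM (468 to 545) in Dll1-, a log2 ratio of -0.70. Without the mixed sub-cluster it was at 321 CPM in Dll1+, and with doublets left in the log2 ratio was -0.52, within 1.5-fold.

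Ndufa11, a membrane-arm subunit of complex I, was at 528 CPM (506 to 549) in Dll1+ and 323 CPM (305 to 343) in Dll1- Krt5-led cells, a log2 ratio of 0.70 that was 0.47 after thinning. In epithelial-like cells it was at 261 CPM in Dll1+ and 281 CPM in Dll1-. Basal markers summed to 12003 CPM in Dll1+ and 10310.1 CPM in Dll1- Krt5-led cells and skin keratinocyte markers to 3716 and 10172.3 CPM, and the part of this make-up was not tested. Among the proton-channel subunits of ATP synthase, which make up its c-ring from identical mature proteins, Atp5g2 was highest and Atp5g3 lowest in epithelial-like cells, at 682 and 283 CPM in Dll1+ and 614 and 329 CPM in Dll1-.

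Copies used in most tissues lay close together in the 2 libraries: Cox6a1 was at 289 CPM in Dll1+ and 303 CPM in Dll1- epithelial-like cells, Cox7a2 at 443 and 441 CPM, and Cox4i1 at 1232 and 1341 CPM. The copies Cox8b and Cox6b2 of complex IV are known from muscle and brown fat, and from testis. Their levels were low and higher in the Dll1+ tumor. Cox8b had 518 UMIs (6.34 CPM) in Dll1+ and 79 UMIs (0.753 CPM) in Dll1- epithelial-like cells, while Cox8a, the copy used in most tissues, was at 886 and 1090.1 CPM. Elsewhere it had 1 UMI in Dll1+ Krt5-led and 1 in Dll1+ fibroblast-like cells. It was seen in 4.36% of Dll1+ and 0.764% of Dll1- epithelial-like cells, and after thinning in 1.01% and 0.190%, against 0 of 319 Dll1+ fibroblast-like cells, whose exact binomial interval reached 1.15%. The unthinned share in Dll1+ fibroblast-like cells was 1 of 332, 0.301% (0.00763 to 1.67), below the 4.36% (3.92 to 4.83) of Dll1+ epithelial-like cells, while at the thinned depth the share of 1.01% was within what fibroblast-like cells allow. Unthinned median depths were 8010 and 10687.5 UMIs in epithelial-like and 9251 UMIs in Dll1+ fibroblast-like cells. Cox6b2 was at 9.70 CPM in Dll1+ and 1.92 CPM in Dll1- epithelial-like cells, 18.2 and 4.45 CPM in Krt5-led cells, and 26.5 and 12.7 CPM in fibroblast-like cells. In a fibroblast sub-state of 118 Dll1+ and 38 Dll1- cells, led by Unc5b and Cdkn2b, Cox6b2 reached 63.3 CPM (49.3 to 80.0) in Dll1+ cells. These cells held 70 of the 82 Cox6b2 UMIs of Dll1+ fibroblast-like cells. The level in the 38 Dll1- cells was not summed. In the fibroblast sub-state led by Saa3 and Apoe, Cox6b2 was at 6.23 CPM in Dll1+ and 11.3 CPM in Dll1- cells. The part of sub-state make-up in the fibroblast difference was not tested. Cox7a1, another copy known from muscle, was at 17.9 CPM in Dll1+ and 9.14 CPM in Dll1- epithelial-like cells, a log2 ratio of 0.90. With epithelial sub-states present in both tumors weighted alike, the log2 ratio was 0.28 for Cox6b2 and 0.34 for Cox7a1, so that both lay within 1.5-fold. In the shared sub-state led by milk genes, Cox6b2 was at 2.72 CPM in Dll1+ and 2.66 CPM in Dll1- cells. Cox7a1 also had 28 UMIs in Dll1+ (11.5 CPM) and 2 in Dll1- (1.85 CPM) pericyte-like cells, a log2 ratio of 2.13. Skeletal muscle markers summed to 6.42 CPM in Dll1+ and 3.73 CPM in Dll1- epithelial-like cells, and brown adipocyte markers to 3.73 and 6.86 CPM. Their part was not tested.

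The promoters of Cox8b and Cox6b2 are set beside those of their widely used copies because the restricted copy of each pair was at a low level in epithelial-like cells and, over all cells of the class, at least 1.5-fold higher in Dll1+ there. For Cox6b2 that difference was within 1.5-fold when shared sub-states were weighted alike, as given above. The sequences are from RefSeq (GRCm38.p6), each 250 bases before to 50 after the gene's start, 5′ to 3′ on the gene's own strand, which is the minus strand for all 4. Capitals mark matches on either strand to the ETS-type motif CCGGAAG, the motif CCAAT and the TATA motif TATAAA. The NRF1 motif, a palindrome of 10 letters named for a nuclear respiratory factor, was searched too and had no match in these windows. The motifs were chosen after these sequences had been seen.
Cox8b, chr7:140900397-140900696: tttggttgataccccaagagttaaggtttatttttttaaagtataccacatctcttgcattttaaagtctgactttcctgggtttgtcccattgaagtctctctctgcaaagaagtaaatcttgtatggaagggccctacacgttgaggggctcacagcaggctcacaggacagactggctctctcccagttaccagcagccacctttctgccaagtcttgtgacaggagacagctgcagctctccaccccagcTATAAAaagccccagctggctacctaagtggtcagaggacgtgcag
Cox8a, chr19:7217567-7217866: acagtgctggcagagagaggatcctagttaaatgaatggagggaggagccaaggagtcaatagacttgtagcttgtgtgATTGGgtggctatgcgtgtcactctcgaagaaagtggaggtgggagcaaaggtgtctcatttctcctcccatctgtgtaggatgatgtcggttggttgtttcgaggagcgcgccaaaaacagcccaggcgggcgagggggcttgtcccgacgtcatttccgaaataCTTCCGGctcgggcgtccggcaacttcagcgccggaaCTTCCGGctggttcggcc
Cox6b2, chr7:4753045-4753344: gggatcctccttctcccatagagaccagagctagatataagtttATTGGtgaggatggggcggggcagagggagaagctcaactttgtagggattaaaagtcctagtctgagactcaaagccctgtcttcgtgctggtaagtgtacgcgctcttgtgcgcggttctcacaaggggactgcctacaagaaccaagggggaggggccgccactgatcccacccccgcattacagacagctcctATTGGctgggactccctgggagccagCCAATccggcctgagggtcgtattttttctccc
Cox6b1, chr7:30626065-30626364: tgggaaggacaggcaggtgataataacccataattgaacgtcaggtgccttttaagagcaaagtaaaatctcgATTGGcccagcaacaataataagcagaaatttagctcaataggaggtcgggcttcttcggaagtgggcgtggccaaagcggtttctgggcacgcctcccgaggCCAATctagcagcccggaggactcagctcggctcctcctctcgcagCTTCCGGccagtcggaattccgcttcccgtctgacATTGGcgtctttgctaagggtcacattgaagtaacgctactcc

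The Cox8b window held the TATA match, 2 CpG and 48.3% G and C. That match lies 4 bases after the annotated start, not before it. That of Cox8a held 2 ETS-type matches, 1 CCAAT match on the other strand and 19 CpG. Cox6b2 had 3 CCAAT matches and 10 CpG, and Cox6b1 had 1 ETS-type match, 3 CCAAT matches and 17 CpG. Of the 87 nuclear members 71 had a promoter in the table. The ETS-type motif was in 22.5% of those 71 and in 16.4% of 12162 promoters of other genes with at least 30 UMIs. CCAAT was in 43.7% and 38.6% of them, TATAAA in 9.86% and 8.14%, and the NRF1 motif in 9.86% (7 promoters) and 1.75%. In the 4 windows printed no match overlapped another. A match is a string of letters and not a bound site.

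Within the epithelial-like cells the sub-states differed more in nuclear OXPHOS level than the libraries did. Of 6 sub-states with at least 50 cells in a library, 3 held at least 50 cells of each tumor, with 1336 of the 8054 Dll1+ and 8609 of the 8644 Dll1- cells. E0, led by the milk genes Wap and Lalba, had nuclear shares of 2.72% in Dll1+ and 2.69% in Dll1- cells. E2, led by Fermt1 and Lgals3, had 1.92% in Dll1+ and 2.02% in Dll1-. E4, led by genes of cell division such as Ube2c, had 3.33% in Dll1+ and 3.06% in Dll1-. The median depth in E4 was 19806 UMIs in Dll1+ and 20984 in Dll1-, the deepest of the 3, and the part of depth in its level was not tested. In each of these 3 sub-states the mt- share was higher in Dll1+ cells, at 6.33% against 4.48% in E0, 4.43% against 3.20% in E2 and 5.68% against 3.28% in E4.

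The other 3 sub-states were nearly all from the Dll1+ tumor. E1, with 5356 Dll1+ cells and led by Tmem213 and Atp6v0a4, had 2.25% nuclear and 6.06% mt- UMIs. E3, with 959 Dll1+ cells, 0 Dll1- cells and leading genes Pdpn and Rbp7, had 3.38% nuclear and 4.60% mt- UMIs. E5, with 390 Dll1+ cells and led by Spp1, had 2.16% and 4.84%. Median depths of the Dll1+ cells were 6376 UMIs in E1, 17273 in E3 and 8842.5 in E5. The part of depth in these levels was not tested. Cox5a was at 634 CPM in E3, against 272 CPM in E1 and 295 CPM in Dll1+ cells of E0, and 219 CPM in Dll1- cells of E0. Ndufaf6 was at 25.8 CPM in E1 and 22.4 CPM in E3, beside 11.6 CPM in Dll1+ and 8.83 CPM in Dll1- cells of E0. Cox8b was highest in E1, at 9.34 CPM. The cycling marker sum in E3 was 1638 CPM, against 2244 CPM in Dll1+ and 2741 CPM in Dll1- cells of E4 and 70.2 CPM in Dll1+ cells of E0.

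**Figure D5:**
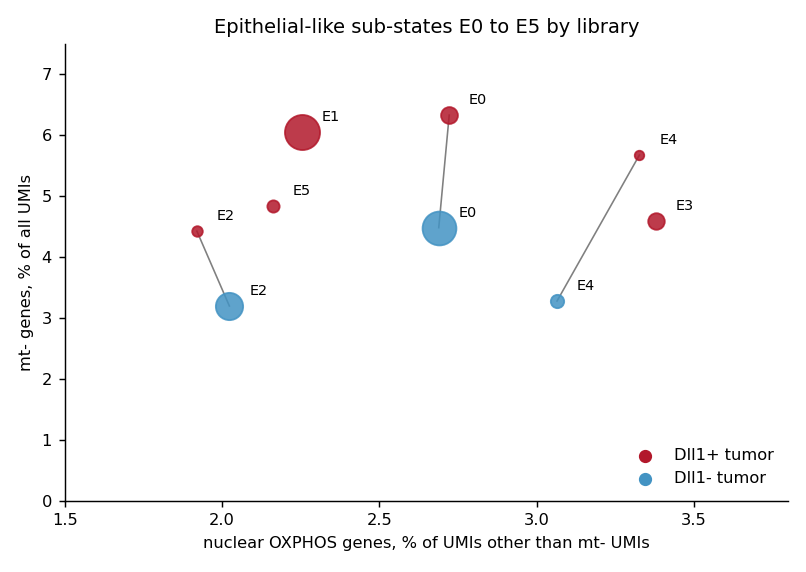
Epithelial-like sub-states by nuclear OXPHOS share (x axis, starting at 1.5%) and mt- share (y axis), with red for Dll1+ and blue for Dll1- cells, point area growing with the number of cells, and lines joining the 3 sub-states held by both tumors. Each line runs upwards to its Dll1+ point, and E3 and E4 lie furthest right, at 3.38% and 3.33% in Dll1+.

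Genes that work with the members but fall outside the symbol rule were counted in epithelial-like cells. Their counts are set beside the 20.9% higher and 5.76% lower of all genes measured in these cells, and with lists this short a share of 1 in 4 or 2 in 10 is near it. Complex II, which feeds electrons from succinate, had 1 of 4 genes at least 1.5-fold higher and 0 lower, with a median log2 ratio of 0.41. It was Sdhd, a membrane anchor of that complex, at 73.8 CPM in Dll1+ and 47.3 CPM in Dll1-. Of 8 carriers of electrons and adenine nucleotides 1 was higher and 0 lower, namely Slc25a4, an ADP/ATP carrier, at 237 CPM in Dll1+ and 156 CPM in Dll1-, while Cycs, cytochrome c, was at 145 and 184 CPM. Of 18 genes of the tricarboxylic acid cycle 0 were past 1.5-fold, with a median of 0.19. Assembly factors of complexes II to V had 1 of 28 higher and 0 lower, with a median of 0.09. Import genes had 1 of 25 higher, Tomm40, and mitochondrial ribosome genes 4 of 78 higher and 1 lower, with Mrpl51 at 217 CPM in Dll1+ and 118 CPM in Dll1-.

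Of 19 genes that copy, transcribe or process the mitochondrial genome and its RNA, 1 was higher and 0 lower, with a median of 0.23. It was Tfam, which packages mitochondrial DNA and starts its transcription, at 28.7 CPM in Dll1+ and 18.7 CPM in Dll1- epithelial-like cells. Biogenesis regulators had 2 of 10 higher, Myc with a log2 ratio of 0.83 among them. Mitochondrial stress genes had 0 of 10 past 1.5-fold and a median of -0.24, with Atf4 at 203 CPM in Dll1+ and 299 CPM in Dll1-. Genes of uncoupling and mitochondrial turnover had 1 of 6 higher and 2 lower, with Ucp2 at 409 CPM in Dll1+ and 835 CPM in Dll1-, and the mitophagy gene Bnip3 at 60.3 and 103 CPM. RNAs retained in the nucleus, which can be a sign of broken cells, had 1 of 4 higher and 0 lower, with a median of 0.08. In some other classes this list differed more. In pericyte-like cells 3 of 4 were higher, beside 17.7% of all genes there, with a median of 0.68. The sum there was lower in Dll1+, 16091.5 CPM against 16643 CPM in Dll1-. Meg3, which is on this list, was among the leading genes of the pericyte-like sub-cluster of 61 Dll1+ and 0 Dll1- cells. The part of class make-up in these counts was not tested. In endothelial-like cells 2 of 3 were higher, beside 11% of all genes there, with a median of 0.91. Sums there were 12545 CPM in Dll1+ and 8900 CPM in Dll1-. In Krt5-led cells 1 of 3 was higher and 1 lower, beside 16.6% and 10.2% of all genes there. Their sums were 9885 CPM in Dll1+ and 16124 CPM in Dll1-. In fibroblast-like cells 0 of 4 were past 1.5-fold. The part of these RNAs in the mt- differences was not tested.

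Glycolysis, the other main source of ATP, had 2 of 16 genes higher and 2 lower in epithelial-like cells, with a median of 0.04. The sum there was 7896 CPM in Dll1+ and 6850 CPM in Dll1-. Aldoc and Hk1, an aldolase and a hexokinase, were at 538 and 113 CPM in Dll1+ and 175 and 43.3 CPM in Dll1-. Hk2, another hexokinase, was at 30.4 CPM in Dll1+ and 82.2 CPM in Dll1-, and Slc16a3, a lactate exporter, at 7.30 and 26.8 CPM. Glycolysis medians were higher in the other classes. Pericyte-like cells had 6 of 15 higher and 0 lower (17.7% and 3.63% of all genes), median 0.52. Krt5-led cells had 3 of 16 and 0 (16.6% and 10.2%), median 0.42. Endothelial-like cells had 2 of 14 and 0 (11% and 4.08%), median 0.37. Fibroblast-like cells had 3 of 16 and 1 (8.6% and 5.27%), median 0.26. Among sub-states the summed glycolysis genes were highest in E2, at 11309.5 CPM of UMIs other than mt- UMIs in Dll1+ and 9719 CPM in Dll1-. E2 also had the lowest nuclear OXPHOS share in both tumors. In Dll1+ cells the other sums were 9737 CPM in E1, 7468 in E3, 6548 in E4, 6072 in E0 and 5362 in E5. The lowest sum was thus in E5, whose nuclear share of 2.16% was next above the 1.92% of E2.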

How the data were processed

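The matrices hold raw UMI counts per gene and barcode, which the authors deposited as 1 unpooled library per tumor. The file headers name Cell Ranger 4.0.0 and the submitters' processing notes name mm10. The sources used here do not give the annotation release or the use of strand. Barcodes with at least 1000 UMIs, 500 genes and at most 20% mt- UMIs were kept. Scrublet's automatic threshold marked 0 barcodes, so the highest-scoring 0.8% per 1000 barcodes were removed. Cells were clustered with scanpy 1.11.5 on 2000 variable genes and 30 components (Leiden resolution 0.6) and named by markers. UMIs were summed per class and library as CPM, and log2 ratios used a pseudocount of 1 CPM over genes with at least 30 UMIs in the class. Intervals are 95% exact Poisson or binomial; ratio intervals carry no pseudocount. Summation and calls were tested on simulated data. TMM factors came from edgeR 4.0.16. Positions are from GENCODE release 21 of the mouse.

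Named were all mt- genes, the 10 highest and 10 lowest nuclear ratios of epithelial-like cells at 20 CPM or more in a library, 2 of each in other classes, tissue-restricted copies, the 3 largest contrasts between classes, and up to 4 genes of each other list. Other genes named were chosen after their values were seen. Members and lists were chosen with earlier results of these data known.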

Additional observations from a re-analysis of the deposited data

Results flagged for a closer look

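mt-Nd6 had ratios of opposite sign in 2 classes. Its log2 ratio, Dll1+ over Dll1-, was 1.05 in pericyte-like cells, with 26 UMIs in Dll1+ and 5 in Dll1-, and -1.04 in fibroblast-like cells, with 10 UMIs in Dll1+ and 31 in Dll1-. With a pseudocount of 10 CPM the values were 0.50 and -0.42, and neither reached 1.5-fold. The difference between the classes was not tested, and each value rests on 1 library per group.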

How the results depend on the processing

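No paired analysis was possible because each group is 1 library and the labels give no replicate numbers. The epithelial nuclear median log2 ratio, 0.10 as reported, was -0.16 with TMM factors, 0.0080 with cells thinned to 2000 UMIs, -0.011 as a mean over cells and 0.058 with shared sub-states weighted alike. The epithelial mt- median, 0.66 as reported, was 0.65 with a minimum of 2000 UMIs, 0.52 with at most 10% mt- UMIs, 0.77 with no limit, 0.64 with doublets left in, 0.39 with TMM factors, 0.68 as CPM of other genes' UMIs, 0.70 thinned, 0.73 as a mean over cells, 0.64 at a Leiden resolution of 1.2 and 0.68 with shared sub-states weighted alike. The fibroblast mt- median, 0.81 as reported, was 0.62 with doublets left in. For the fibroblast-like over epithelial-like level, no mt- limit, doublets left in and thinning gave 0.644, 0.709 and 0.709 for nuclear genes in Dll1+ and 0.646, 0.745 and 0.678 in Dll1-, and 0.515, 0.657 and 0.485 for mt- genes in Dll1+ and 0.465, 0.637 and 0.404 in Dll1-. The cause of these shifts was not tested.

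Among counts in epithelial-like cells, TMM factors gave 4 nuclear genes lower and 1 mt- gene higher, at most 10% mt- UMIs gave 4 mt- genes higher, a pseudocount of 10 CPM gave 3 nuclear genes higher, and shared sub-states gave 2. In endothelial-like cells the mt- genes called higher ranged from 0, with at most 10% mt- UMIs, to 5, and in Krt5-led cells from 0 to 3. Of 250 member values by class, 49 were at least 1.5-fold as reported, and the alternatives gave 3265 values for the 250. In 58 of those 3265 a 1.5-fold difference was no longer reached and in 34 it was newly reached, among them Ndufaf3 of endothelial-like cells, at -0.71 after thinning and 0.04 as reported. Of the values that were 1.5-fold as reported 1 changed sign: Ndufa4l2 in endothelial-like cells, -0.44 without the mixed sub-cluster, an alternative chosen after seeing the data, as was leaving members out of clustering. Classes other than epithelial-like held few cells, which limits what they can show for genes of low level.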
